A study of Homo sapiens with 6 samples.

Results

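The oligosaccharyltransferase is the enzyme of the endoplasmic reticulum membrane that moves a preassembled glycan from a dolichol lipid onto asparagine residues of newly made proteins. Of the 18132 genes that could be compared, 10 encode subunits of it and are described here: OSTC, DDOST, RPN1, RPN2, STT3A, STT3B, DAD1, TUSC3, MAGT1 and KRTCAP2. They were taken from the deposited value table as all 31 probe sets whose only gene symbol is one of these names, and 0 probe sets list a subunit together with another gene. The group was selected on the difference of OSTC between shERCC6L and shNC arrays, one of the largest falls in the table, so that difference is given as a description without a test. The other 9 subunits were included for belonging to the same complex.

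The arrays hold RNA of 786-O cells, an established line from a human kidney renal cell carcinoma, on 6 single-channel Affymetrix arrays. The control cells carried a negative control short hairpin RNA (shNC, 3 arrays) and the other cells an shRNA against ERCC6L (shERCC6L, 3 arrays), per the labels both brought in by lentivirus. ERCC6L encodes a DNA translocase that acts on the threads joining sister chromatids in anaphase. The number of hairpins is not given in the sources used here, nor whether replicates are separate cultures, so the p-values speak only of variation among these arrays, which may be technical variation. The single ERCC6L probe set, read first as a check of the labels, gave 239.9, 244.3 and 261.4 with shNC and 97.59, 97.49 and 97.83 with shERCC6L, or 39.3% of the control signal. Array medians lay between 60.04 and 61.56 intensity units. Of the 8 markers listed for a renal carcinoma line 7 were measured, and all 7, PAX8 and VIM among them, reached the median level of all genes, against 1 of 4 measured leukocyte markers (CD68), 0 of 4 endothelial and 0 of 5 fibroblast markers. The summed signal of the leukocyte markers was 162.2 to 181.5 with shNC and 190.1 to 198.7 with shERCC6L, and that of the fibroblast markers 158.9 to 168.7 and 138.5 to 142.7; their part in the results was not tested.

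There are alternative forms of the enzyme. One is built around the catalytic subunit STT3A, sits at the protein-conducting channel and glycosylates chains as they enter the endoplasmic reticulum; OSTC, also called DC2, and KRTCAP2, also called KCP2, are the small membrane subunits that tie it to the channel. The other is built around STT3B, holds 1 of the thioredoxin-like oxidoreductases MAGT1 and TUSC3, and reaches sites that the first form skipped. RPN1, RPN2, DDOST and DAD1 are common to both forms.

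OSTC lies on chromosome 4 from 108650599 to 108667820 (GRCh38.p14, RefSeq) and KRTCAP2, its neighbour in the STT3A form, on chromosome 1 from 155169408 to 155173304. The 250 bases before each gene's start are shown because these channel adaptors had unlike signals on the same arrays. They are RefSeq sequence of GRCh38.p14, chr4:108650349-108650598 on the plus strand for OSTC and chr1:155173305-155173554 on the minus strand for KRTCAP2, written 5′ to 3′ along the gene's strand, with capitals for matches to CCAAT or GGGCGG on either strand.
OSTC: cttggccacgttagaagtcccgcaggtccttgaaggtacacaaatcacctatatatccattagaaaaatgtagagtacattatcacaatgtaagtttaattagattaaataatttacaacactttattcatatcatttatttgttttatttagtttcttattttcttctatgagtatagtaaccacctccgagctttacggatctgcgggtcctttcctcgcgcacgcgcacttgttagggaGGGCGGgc
KRTCAP2: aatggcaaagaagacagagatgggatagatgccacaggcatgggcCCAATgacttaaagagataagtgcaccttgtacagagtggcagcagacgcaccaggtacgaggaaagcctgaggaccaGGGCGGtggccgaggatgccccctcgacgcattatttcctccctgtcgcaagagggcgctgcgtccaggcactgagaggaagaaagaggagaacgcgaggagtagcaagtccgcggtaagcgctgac
G and C made up 38.4% of the OSTC stretch and 57.2% of the KRTCAP2 stretch, where the median over 35116 RefSeq promoter stretches of this length was 58%. OSTC had 1 GGGCGG, beginning 8 bases before the start, and no CCAAT, while KRTCAP2 had both. The table holds stretches for 7 of the subunits, with a pair for MAGT1 that overlap and share matches, so each gene is counted once. CCAAT was found in 32% of all stretches and for 5 of the 7 subunits, all but OSTC and RPN2. RPN2 kept 95.3% of its control signal with shERCC6L. GGGCGG was found in 42.6% of all stretches and for 4 of the 7. The endoplasmic reticulum stress element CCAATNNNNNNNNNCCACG and the C/EBP-ATF element TGATGCAAT were found for 0 of the 7, and in 0.074% and 0.216% of all stretches. These matches describe letters in this window only.

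OSTC was the subunit that stood apart. Its brightest probe set read 2716, 2980 and 2787 with shNC and 959.8, 964.3 and 1009 with shERCC6L. Every shERCC6L array lay far below every shNC array, the closest pair of arrays differing 2.69-fold and the farthest 3.10-fold. The group means were 2828 ± 136.3 and 977.7 ± 27.2 (SD, n = 3 per group), and 34.6% of the control level remained. On the scale of log2(signal + 16), used for all log2 values here, the difference was -1.52 ± 0.04 (SE), or 2.86-fold lower with shERCC6L. By that difference OSTC ranked 7 from the bottom among all 18132 genes, which is the value it was chosen for.

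The second OSTC probe set gave the same picture at a dimmer level. It read 1594, 1754 and 1652 with shNC and 561, 561.7 and 594.1 with shERCC6L, a log2 difference of -1.52. Its signal was 0.582 to 0.593 times that of the brighter one on all 6 arrays, so the pair moved in step even between replicates. Whether the probe sets share probes was not tested. Both carry the x suffix, by which Affymetrix marks sets with probes similar to other transcripts. RefSeq lists pseudogene copies of OSTC, whose signal may not be separable from it, and also of DAD1 (DAD1P1) and KRTCAP2 (KRTCAP2P1). The probe set of one of them, OSTCP1 on chromosome 6, read 7.436 to 8.183 with shNC and 7.585 to 7.999 with shERCC6L, near the bottom of the table in both groups, with a log2 difference of 0.01 that did not pass (limma adjusted p = 0.93).

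Measured genes beside OSTC on chromosome 4 did not show its difference, though not all were bright enough to show one of that size. RPL34, a protein of the large ribosomal subunit, and its divergent transcript RPL34-DT lie before OSTC, with log2 differences of 0.04 and -0.03. ETNPPL, a phospholyase, and COL25A1, a membrane collagen, lie after it, with 0.01 and -0.02. None of the 4 passed (limma adjusted p from 0.48 to 0.87). RPL34 read 7181 to 7249 with shNC and 7310 to 7573 with shERCC6L, while the other 3 were below the median level of all genes. Over the 6 arrays ETNPPL read 5.919 to 6.622 and RPL34-DT 13.44 to 15.83. Both lie under the pseudocount of 16, so neither could show a fall as large as that of OSTC on this scale.

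Each gene's 6 log2 values, less its own shNC mean, were compared with those of OSTC, among the 9066 genes whose level reached the median. The nearest were SOX4, YAP1, SELENOT and ARPC5, at Euclidean distances of 0.12, 0.13, 0.17 and 0.18 over the 6 arrays. SOX4, a transcription factor gene, left 33.3% of its control signal, and YAP1, the Hippo pathway coactivator, 35.3%. SELENOT, a selenoprotein of the endoplasmic reticulum, left 32.6%, and ARPC5, a subunit of the actin-nucleating Arp2/3 complex, 37.1%. With only 2 groups this likeness rests mainly on a difference of the same size.

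**Figure D1:**
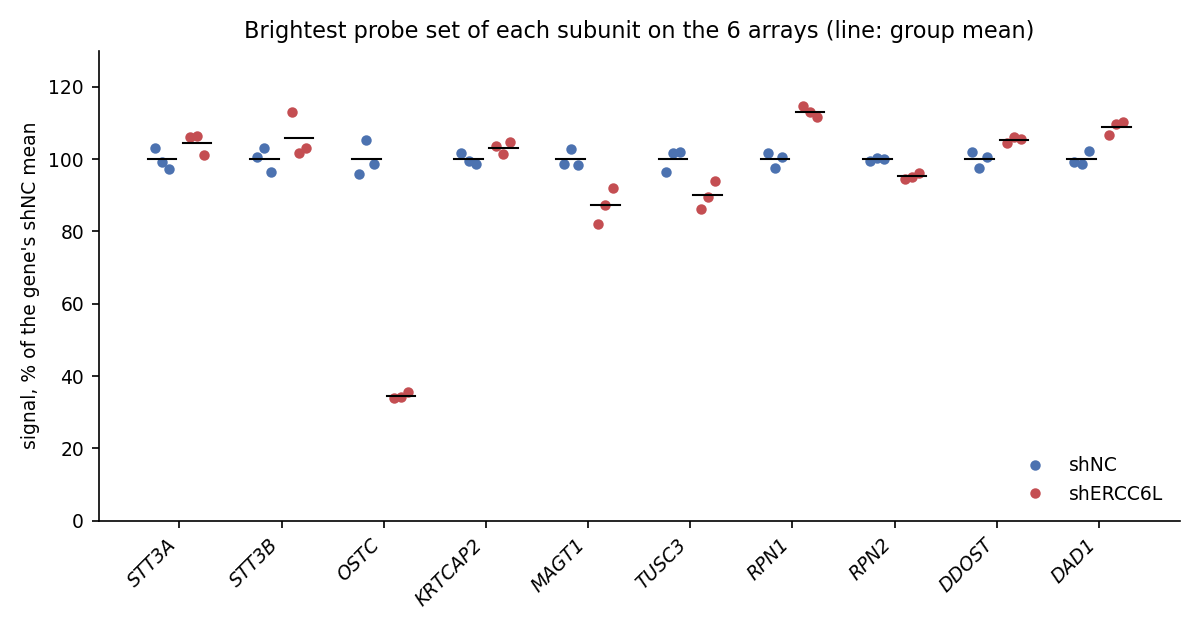
Signal of the brightest probe set of each subunit on each array (points), as a percentage of that gene's own shNC mean, with group means as lines (3 arrays per group). The shERCC6L points of OSTC lie near 34.6%, while the group means of the other 9 subunits lie between 87.2% and 113.1%.

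The other subunits differed little. Of the 9, 2 were called higher (RPN1 and DAD1) and 2 lower (MAGT1 and TUSC3) at an adjusted p under 0.05, from limma fitted to all genes. In that fit 31.6% of all genes were called, 18.2% higher and 13.4% lower. All 10 subunits are bright, and among the 9066 genes whose level reached the median, with p-values adjusted over these alone, 57.4% were called, 35.7% higher and 21.6% lower, against 4 of 9 here, 2 higher and 2 lower. The share of called subunits lay between these backgrounds. The largest difference among the 9 was 1.14-fold, and their median log2 difference was 0.06, where that of all genes was -0.01 and that of the 9066 brighter genes 0.04. The groups did not overlap for 6 of the 9, as for 43.4% of all genes and 64.5% of the brighter ones.

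**Figure D2:**
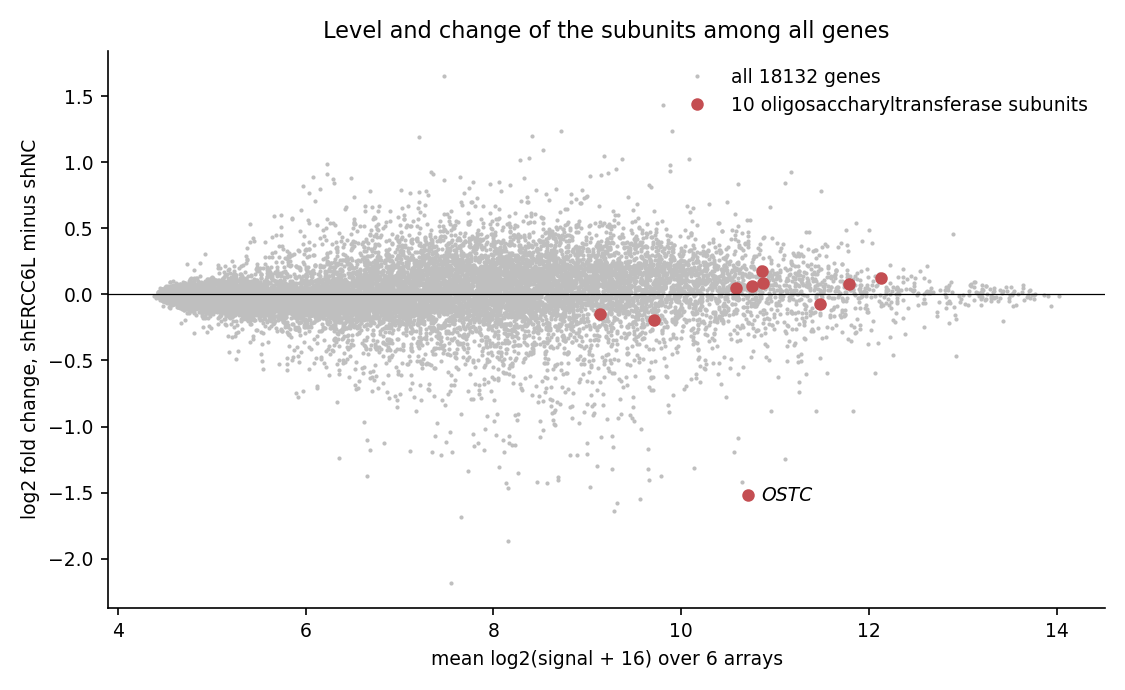
Mean log2(signal + 16) over the 6 arrays (horizontal axis) against the log2 fold change of shERCC6L over shNC (vertical axis) for all 18132 genes (grey) and the 10 subunits (red). OSTC lies at -1.52, and the other 9 subunits lie between -0.19 and 0.18 within the grey band.

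The catalytic subunits did not pass. STT3A, the catalyst of the form that holds OSTC, read 1731, 1665 and 1633 with shNC and 1779, 1785 and 1697 with shERCC6L. The groups overlapped, and the log2 difference was 0.06 with a 95% interval of -0.02 to 0.15 (limma adjusted p = 0.26). STT3B read 1814, 1858 and 1739 with shNC and 2040, 1834 and 1859 with shERCC6L, overlapping again, with a difference of 0.08 and an interval of -0.03 to 0.19 (adjusted p = 0.25). The ratio of STT3A to STT3B on each array changed by -0.02 on the log2 scale (exact permutation p = 0.8, two-sided, 3 arrays per group). With so few arrays this test cannot give a p under 0.1, so it could not have passed 0.05. STT3B has 7 probe sets. All 7 differences were above 0, from 0.02 to 0.15, and 2 of them were called higher where every probe set was tested. With the 7 averaged, STT3B was called higher, at 0.09 ± 0.03 (SE, limma adjusted p = 0.023).

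KRTCAP2, the companion of OSTC at the channel, did not pass either. It read 1516, 1485 and 1474 with shNC and 1546, 1513 and 1561 with shERCC6L, with overlapping groups and a log2 difference of 0.05 ± 0.03 (SE; 95% interval -0.03 to 0.12; limma adjusted p = 0.36). Its other probe set was at 6.42 to 7.04 on all arrays, among the dimmest of the table.

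The oxidoreductases of the STT3B form both fell slightly. MAGT1, which has also been described as a magnesium transporter, read 868.8, 906.8 and 866.9 with shNC and 723.6, 770 and 811.6 with shERCC6L. All 3 shERCC6L arrays were below all 3 shNC arrays, and the log2 difference was -0.19 ± 0.05 (SE; limma adjusted p = 0.01), 87.2% of the control signal. All 4 MAGT1 probe sets had differences below 0, from -0.20 to -0.06, and 2 passed where every probe set was tested. TUSC3, its paralogue, read 553.8, 584 and 586 with shNC and 495.1, 514.9 and 540.7 with shERCC6L, again without overlap. It fell by 0.15 ± 0.04 on the log2 scale (adjusted p = 0.026), and its other probe set also fell by 0.15. The ratio of MAGT1 to TUSC3 changed by -0.05, with overlapping groups (exact permutation p = 0.3, where 0.1 is the smallest possible). MAGT1 passed under all 16 other settings tried. TUSC3 did not pass without shNC replicate 2 (adjusted p = 0.075) or 3 (0.087), without shERCC6L replicate 1 (0.081) or 2 (0.075), or with a pseudocount of 1 (0.053).

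Among the common subunits RPN1 rose and DAD1 was called higher. RPN1, ribophorin I, which brings some membrane protein substrates to the catalytic site, read 1767, 1692 and 1747 with shNC and 1988, 1960 and 1938 with shERCC6L. The groups were clearly apart, at a log2 difference of 0.18 ± 0.03 (SE; limma adjusted p = 0.0036). All 4 RPN1 probe sets rose, by 0.16 to 0.22, and the gene passed under all 16 other settings. DAD1, a small subunit first known as a defender against cell death, read 4245, 4222 and 4386 with shNC and 4566, 4701 and 4724 with shERCC6L, without overlap and with a difference of 0.12 ± 0.04 (adjusted p = 0.024). Only 2 of its 4 probe sets passed, and with the 4 averaged the difference was 0.08 (adjusted p = 0.046). DAD1 did not pass without shNC replicate 1 (adjusted p = 0.075) or 2 (0.072), without shERCC6L replicate 2 (0.08) or 3 (0.068), or with a pseudocount of 1 (0.061).

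RPN2 and DDOST did not pass, and their differences had opposite signs. RPN2, ribophorin II, read 2899, 2920 and 2911 with shNC and 2752, 2763 and 2800 with shERCC6L. Those groups did not overlap, yet the log2 difference was only -0.07 ± 0.03 (SE; 95% interval -0.14 to 0.00; limma adjusted p = 0.13). DDOST, also called OST48, read 3495, 3338 and 3444 with shNC and 3583, 3638 and 3613 with shERCC6L, also without overlap, at 0.08 ± 0.03 (adjusted p = 0.13). Both passed with an intensity trend and robust estimation (adjusted p = 0.038 for RPN2 and 0.031 for DDOST) and with a pseudocount of 64 (0.017 and 0.037). The ribophorins thus stood on opposite sides of 0. The ratio of RPN1 to RPN2, set to a mean of 0 over shNC, was -0.04 to 0.03 there and 0.21 to 0.27 with shERCC6L, a change of 0.25 on the log2 scale without overlap. Its exact permutation p was 0.1, the smallest that 3 arrays against 3 allow, and 0.3 after Benjamini-Hochberg adjustment over the 3 ratios computed. The ribophorin ratio was chosen after its values were seen.

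**Figure D3:**
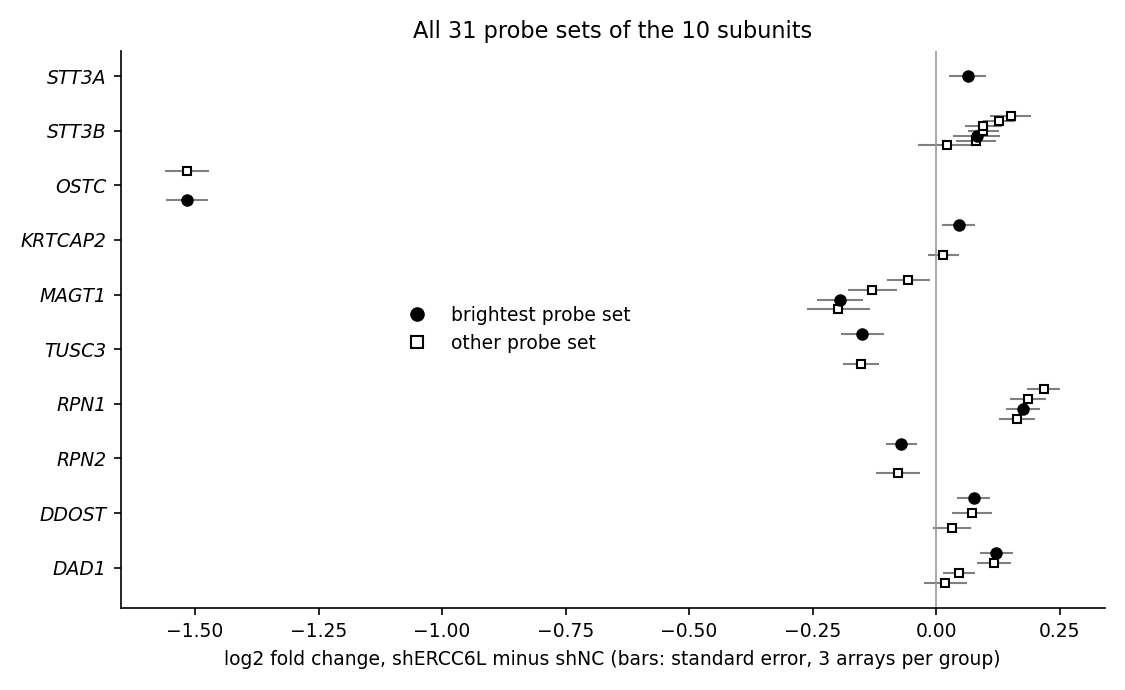
Log2 fold change of shERCC6L over shNC (horizontal axis) for all 31 probe sets of the 10 subunits (rows), with bars for the standard error of 3 arrays per group. Filled circles are each gene's brightest probe set and open squares the others: within each gene all probe sets lie on 1 side of 0, and those of OSTC coincide at -1.52.

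Across all probe sets, 8 of the 29 outside OSTC were called higher and 4 lower, where 17% and 12% of all 44988 probe sets with 1 gene symbol were. Those 44988 include many dim probe sets, whereas most of the 29 are bright. Shares among bright probe sets were not computed, and among the 9066 brighter genes they were 35.7% and 21.6%. Probe sets of a gene are not independent: RPN1 gave 4 of the higher calls, DAD1 2 and STT3B 2, and MAGT1 and TUSC3 gave 2 lower calls each.

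Subunits and partners outside the 10 also differed unequally. TMEM258, a small common subunit, read 2344, 2312 and 2316 with shNC and 2103, 2105 and 2099 with shERCC6L on its brightest probe set. That is a fall of 0.14 ± 0.03 on the log2 scale (SE; limma adjusted p = 0.0066). Only 1 of the 2 TMEM258 probe sets was called lower, and their mean was -0.10. OST4, the smallest subunit, differed by 0.04 (adjusted p = 0.45). MLEC, which encodes malectin, a glucose-binding lectin that associates with RPN1, rose from 1332, 1239 and 1296 to 1819, 1880 and 1857, by 0.52 ± 0.04 (adjusted p = 1.3e-05), on all 4 of its probe sets.

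Of 23 measured genes that build the lipid-linked glycan, the substrate of the enzyme, 12 were higher and 1 lower (median log2 difference 0.13), beside 18.2% higher and 13.4% lower of all genes. As 21 of the 23 belong to the brighter genes, the shares of 35.7% and 21.6% among those are the closer background. ALG5, which makes the dolichol-linked glucose donor, rose most, by 0.88 ± 0.04 (SE; limma adjusted p = 5.5e-07). GMPPB and GMPPA, of GDP-mannose synthesis, rose by 0.33 and 0.17 and ALG1, a mannosyltransferase, by 0.17. ALG5, GMPPB and ALG1 have 1 probe set each, and that of ALG1 was dim, at 22.02 to 28.45 over the arrays. MPI, the mannose phosphate isomerase, fell by 0.22 on its brightest probe set, 1 of 5 to be called, with a mean of -0.07 over the 5. Of 17 genes that trim the transferred glycan or read it, 6 were higher and 3 lower (median 0.05). All 17 belong to the brighter genes, and these counts are near the 35.7% and 21.6% called there. GANAB, the catalytic subunit of glucosidase II, rose by 0.32, the cargo receptor LMAN1 by 0.41, the lectin ERLEC1 by 0.31 and EDEM1 by 0.21. EDEM2, MAN1B1 and OS9 fell by 0.24, 0.16 and 0.10. Only 1 of the 5 EDEM1 probe sets was called, and their mean was -0.02; the mean over 6 LMAN1 probe sets was 0.12 and over 3 ERLEC1 probe sets 0.16. Of the 6 OS9 probe sets 1 was called lower (mean -0.06), as was 1 of the 2 for EDEM2 (mean -0.15) and 2 of the 4 for MAN1B1 (mean -0.12).

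In the Golgi list, whose 22 genes remodel the glycan later, 4 were higher and 6 lower (median -0.03), beside 18.2% and 13.4% of all genes. Of the 22, 13 belong to the brighter genes, and with p-values adjusted over the brighter genes alone 2 were higher and 4 lower. The shares of all brighter genes by that adjustment were 35.7% and 21.6%. MAN2A1, the mannosidase II that opens the way to complex glycans, fell by 0.70 ± 0.04 (SE; limma adjusted p = 2.8e-06), the galactosyltransferase gene B4GALT1 by 0.58 and the UDP-galactose carrier gene SLC35A2 by 0.60. The sialyltransferase gene ST6GAL1 fell by 0.30, while ST3GAL6, ST3GAL4, SLC35A3 and B4GALT3 rose by 0.27, 0.20, 0.23 and 0.22. Of 6 SLC35A2 probe sets 4 were lower and 1 higher, with a mean of -0.31, and the mean over 5 B4GALT1 probe sets was -0.35. MAN2A1 has only 1 probe set.

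**Figure D4:**
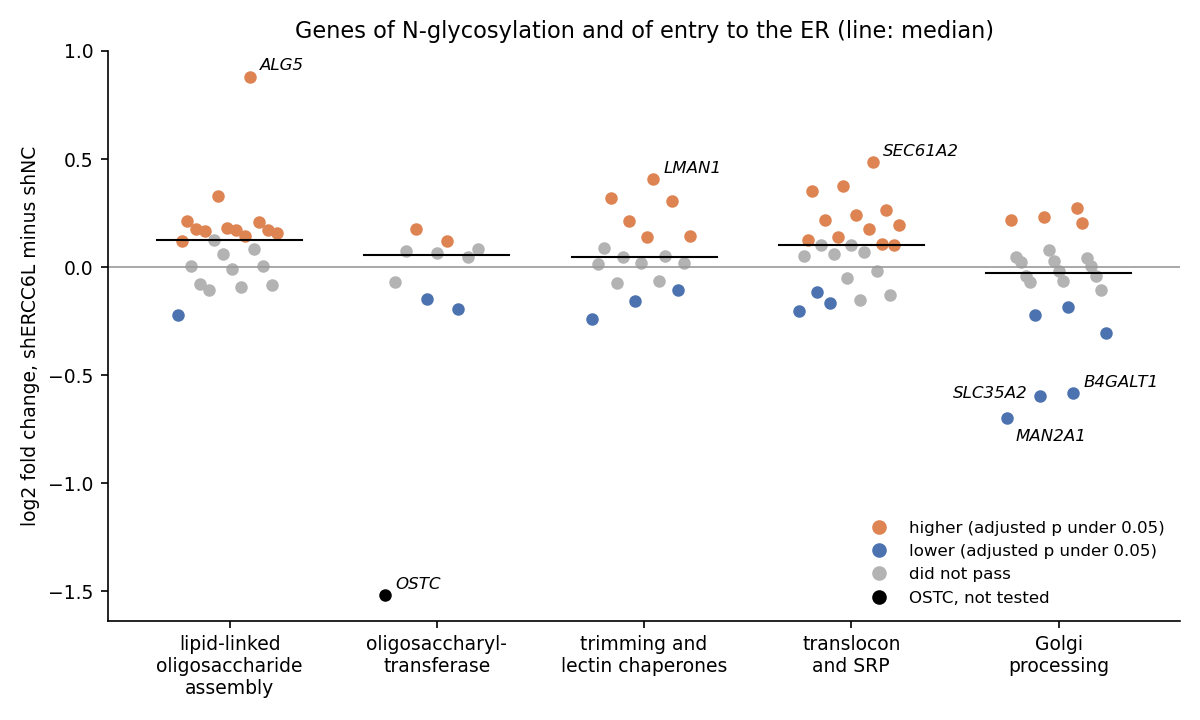
Log2 fold change of shERCC6L over shNC (vertical axis) for single genes (points) of 4 lists and of the 10 subunits, with list medians as lines and colours for the limma call. OSTC at -1.52 lies below every listed gene, the lowest of which is MAN2A1 at -0.70, and ALG5 at 0.88 lies above all.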

How the data were processed

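Per the labels, total RNA of 6 samples was extracted with Trizol and hybridised as biotin-labelled cRNA. The deposited values are linear intensities, 1 per probe set and array, made with Affymetrix Expression Console per the submitters' processing notes; which version, background correction and summarization were used is not given in the sources used here. Precision is limited by the number of arrays.

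The table held 49395 probe sets: 102 controls, 44988 with 1 gene symbol in GEO's platform annotation, 1832 with several and 2473 unnamed. Gene numbers of 44961 matched RefSeq (GRCh38.p14), which changed 0 symbols. Values were taken as log2(signal + 16), which understates differences of dim genes. A gene was represented by its brightest probe set (18132 genes). The 2 groups entered limma 3.58.1 (R 4.3.3; lmFit, eBayes, two-sided tests, no block or filter), with Benjamini-Hochberg adjustment over all genes and a threshold of 0.05. The procedure was tested on simulated data, but the planted differences were larger than those of the subunits other than OSTC. It therefore does not bear on the calls of those subunits. Deviations of same-numbered arrays from their group means had correlations of mixed sign (0.24, -0.14 and -0.01), so the arrays were not paired.

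Members and lists were chosen with earlier results of these data known. Named genes are the subunits with every probe set, ERCC6L, in each list the 4 called genes with the smallest p and all of a direction where 5 or fewer were called, the 2 nearest measured genes on each side of OSTC, and the 4 genes nearest to it in profile. OST4, OSTCP1 and SEC61A1 are named outside this rule, after their values were seen, as are the markers PAX8, VIM and CD68. Some listed genes are not reported here. Promoter sequence is RefSeq's; RPN1, STT3B and TUSC3 have no entry printed.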

Additional observations from a re-analysis of the deposited data

How the results depend on the processing

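Limits first: there are 3 arrays per group, and the 9 subunits besides OSTC differed by at most 1.14-fold in the main fit. Calls of single subunits therefore turn on small shifts of the spread. The directions of all 10 subunits were the same under all 16 alternatives, and the OSTC difference ran from -1.54 to -1.47 on the log2 scale. Several of the alternatives, the replicate block and the intensity trend among them, alter only the p-values and could not change a direction. With a replicate block 2 of 9 subunits were called higher and 2 lower, 3238 of all genes higher and 2381 lower, and no call of a subunit changed. With a pseudocount of 1, 1 subunit was higher and 1 lower. Leaving out 1 array at a time gave 1 to 2 subunits higher and 1 to 2 lower. Of genes building the lipid-linked glycan, 2 were lower with quantile normalization and 1 to 2 without 1 array; of the trimming genes 1 to 3 were lower without 1 array. Of the translocon list 5 were lower with an intensity trend, 5 where only genes of median level or brighter were adjusted (an alternative added after the data were seen) and 2 to 5 without 1 array. Of the Golgi list 2 were higher under that last adjustment, where fewer genes were tested. The cause of the other shifts was not tested.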

Other observations

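A further list held 24 measured genes of the channel that OSTC and KRTCAP2 contact, of the delivery of chains to it and of the signal peptidase. Of the 24, 12 were called higher and 3 lower, and 9 did not pass (median log2 difference 0.10). All 24 belong to the 9066 genes that reached the median level, of which 35.7% were higher and 21.6% lower. Those shares rest on p-values adjusted over the 9066 alone, and by that adjustment 12 of the 24 were higher and 5 lower. SEC11A, a catalytic subunit of the signal peptidase, rose from 2588 ± 51.2 to 3366 ± 92.5 (SD, n = 3 per group), by 0.38 ± 0.04 on the log2 scale (SE; limma adjusted p = 6e-05), on all 4 of its probe sets. SRPRB, a subunit of the signal recognition particle receptor, rose by 0.35, SEC61A2, an isoform of the channel, by 0.48 and SRP19 by 0.26. Over all their probe sets the means were 0.32 for SEC61A2 (2 of 3 called higher) and 0.52 for SRP19 (both called higher). The members that fell were SRPRA, the other receptor subunit, on all 5 of its probe sets (by 0.20 on the brightest), TRAM2 by 0.16 (1 of 3 probe sets lower, mean -0.09) and SRP68 by 0.12 (1 of 2 lower, mean -0.10). SEC61A1, the main channel subunit, was at -0.15 and did not pass (adjusted p = 0.051).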
